A study of Mus musculus with 8 samples.

Results

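Canonical glucocorticoid receptor targets are genes that glucocorticoids raise in many tissues through the receptor itself. A set of 10 such genes outside the circadian clock was examined, Fkbp5, Tsc22d3, Klf9, Klf15, Zbtb16, Sgk1, Fam107a, Cebpd, Dusp1 and Errfi1, chosen by symbol among the 24481 named genes of the expression table. The set was chosen with earlier results of these data known, so that its counts beside those of all genes are a description. All 10 had a row, and all 10 were among the 16889 genes abundant enough to be tested. RNA sequencing was done 3 days after surgery on stomachs from female mice of the inbred strain C57BL/6J, wild-type in genotype, 4 after adrenalectomy and 4 after a sham operation. Adrenalectomy removes the source of corticosterone, the main glucocorticoid of the mouse, and with it that of aldosterone and of adrenal adrenaline, so that the groups differ in all of these hormones. The labels name neither the age of the mice nor any replacement of hormones or salt. The labels do not tie each sample to its own animal, and the p-values below therefore measure the spread between these samples, which may be technical.

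The glucocorticoid receptor is held in the cytoplasm by Hsp90 chaperones, moves to the nucleus when it binds hormone, and binds DNA as a dimer at glucocorticoid response elements. Its targets feed back on hormone sensitivity, restrain inflammatory signalling, and shift metabolism towards that of fasting. Several of them are transcription factors that pass the signal on to further genes, and some, such as Dusp1 and Errfi1, are also induced quickly by growth factors, stress and tissue handling.

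After adrenalectomy, 4 of the 10 targets fell and none rose. Read back from the deposited log2 values, Fkbp5, Klf9, Cebpd and Fam107a fell to 49.0%, 62.5%, 74.5% and 76.8% of their sham levels. The transformation behind these values is unnamed, so that the percentages may differ from those of read counts. Tsc22d3 and Sgk1 were lower in every adrenalectomy sample than in any sham sample but did not pass the test, and Klf15, Zbtb16, Dusp1 and Errfi1 overlapped between the groups. All values are deposited log2 values, normalized between samples by the authors, and a difference is adrenalectomy minus sham, tested with limma with adjustment over all tested genes and a threshold of 0.05. Genes called lower after adrenalectomy made up 0.782% of all tested genes, and genes called higher 0.93%. The count of 4 targets became 6 without sham replicate 1, 1 without sham replicate 3 or adrenalectomy replicate 2, and 2 without any single one of the other 5 samples. Groups that did not overlap, with adrenalectomy lower, were found for 6 of the 10 targets and for 6.13% of all tested genes. The opposite separation was found for none of the 10 and for 6.3% of all tested genes. The median difference was -0.39 over the 10 targets and -0.000875 over all tested genes.

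**Figure D1:**
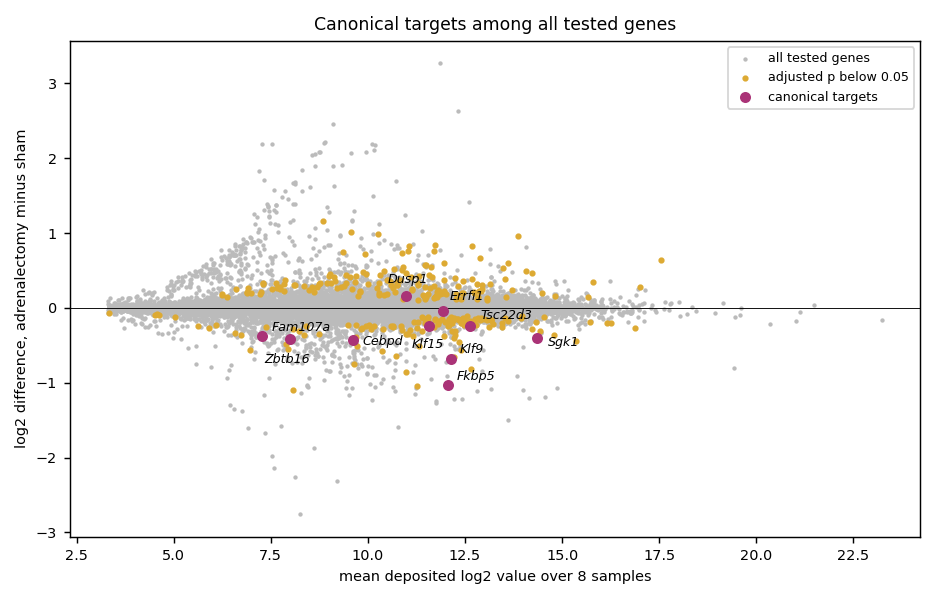
Difference between the groups (vertical, log2, adrenalectomy minus sham) against mean deposited log2 value over the 8 samples (horizontal), with 1 point per tested gene, genes past the threshold in yellow and the 10 targets in purple. Fkbp5 lies lowest of the 10 at -1.03 and Dusp1 highest at 0.16.

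The series as a whole bears on these values in several ways. Over the whole data set, 289 genes were called, 132 lower and 157 higher, and centring each sample on its median changed this split to 87 lower and 69 higher. The stomach label was matched by abundant gastric genes, 10 in the list (Pgc, Gif, Atp4a, Atp4b, Gkn1, Gkn2, Tff1, Tff2, Muc5ac and Muc6), which took 18.9% to 21.6% of the summed linear values in sham samples and 18.8% to 19.7% after adrenalectomy. The samples differed in their levels of skeletal muscle, squamous and liver genes. Whether this RNA came from tissue outside the stomach or from a varying share of stomach regions was not tested. The mean log2 value of 14 skeletal muscle genes was 9.18 and 9.16 in sham replicates 2 and 3 and 6.90 to 7.22 in the other 6 samples, and these replicates were also highest for 12 squamous genes (13.08 and 13.10, against 10.50 to 12.32). The mean of 14 liver genes reached 13.73 in adrenalectomy replicate 1 and lay between 8.72 and 11.04 elsewhere. Smooth muscle genes fell in 3 of 10 members, against 0.782% of all tested genes. Their list mean was 15.26 to 15.33 in sham samples and 15.08 to 15.18 after adrenalectomy. Leukocyte genes rose in 4 of 8 tested members, against 0.93% of all tested genes, with Cd3e and Ms4a1 too low to test. The leukocyte list mean was 7.92 to 7.96 in sham samples and 8.14 to 8.30 after adrenalectomy. In whole stomach, fewer cells of a type and less RNA per cell cannot be told apart, and the part of smooth muscle and leukocyte RNA in the results was not tested. Results without sham replicates 2 and 3 and adrenalectomy replicate 1 are given below, and the samples kept there include sham replicate 4 and adrenalectomy replicate 2, with liver means of 10.90 and 11.04.

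Promoter sequences are shown for the pair of targets whose start regions hold a full response element and for the pair that fell furthest, which hold none. RefSeq promoter windows on GRCm38.p6, each running from 250 bases before to 50 bases after an annotated transcription start, were available for 8 of the 10 targets, in 18 windows. The full element searched was GNACANNNTGTNC, which reads the same on both strands. It was found in 2 of the 8 genes, Sgk1 and Fam107a, and in 0.537% of the 27018 genes with a window. The single arm AGAACA, searched on both strands and overlapping the full element where both occur, was found in 3 of the 8 genes and in 21.3% of all genes with a window. Genes with many annotated starts have more chances to match, and Sgk1 has 6 windows and Fam107a has 3. The Sgk1 window at chr10:21993640-21993939 (plus strand) holds GAACAGAATGTTC, beginning 188 bases before the start. The Fam107a window at chr14:8309730-8310029 (minus strand) holds GGACATGGTGTTC, beginning 118 bases before the start, and another Fam107a window is shifted by 2 bases and holds the same match. The Fkbp5 window is chr17:28486100-28486399 (minus strand) and the Klf9 window chr19:23140976-23141275 (plus strand). Each sequence is given from 5′ to 3′ along the strand of the gene, with matches to either element in capitals.
Sgk1: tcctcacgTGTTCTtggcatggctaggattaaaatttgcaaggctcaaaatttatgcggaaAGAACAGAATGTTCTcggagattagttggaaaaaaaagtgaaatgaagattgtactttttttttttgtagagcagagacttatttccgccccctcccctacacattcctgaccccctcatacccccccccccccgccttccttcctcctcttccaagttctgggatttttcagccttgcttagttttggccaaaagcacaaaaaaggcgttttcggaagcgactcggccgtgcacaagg
Fam107a: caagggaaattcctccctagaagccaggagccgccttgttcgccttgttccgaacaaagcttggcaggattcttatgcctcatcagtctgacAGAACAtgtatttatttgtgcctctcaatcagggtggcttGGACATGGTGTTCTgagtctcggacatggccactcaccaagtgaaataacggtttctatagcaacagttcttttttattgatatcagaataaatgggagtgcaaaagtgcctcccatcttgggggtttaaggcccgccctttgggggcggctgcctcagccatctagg
Fkbp5: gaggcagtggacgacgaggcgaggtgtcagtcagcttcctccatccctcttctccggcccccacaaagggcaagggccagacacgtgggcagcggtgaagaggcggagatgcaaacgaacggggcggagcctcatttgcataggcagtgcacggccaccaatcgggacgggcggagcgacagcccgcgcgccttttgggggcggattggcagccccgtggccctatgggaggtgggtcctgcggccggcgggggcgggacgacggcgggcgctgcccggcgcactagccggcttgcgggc
Klf9: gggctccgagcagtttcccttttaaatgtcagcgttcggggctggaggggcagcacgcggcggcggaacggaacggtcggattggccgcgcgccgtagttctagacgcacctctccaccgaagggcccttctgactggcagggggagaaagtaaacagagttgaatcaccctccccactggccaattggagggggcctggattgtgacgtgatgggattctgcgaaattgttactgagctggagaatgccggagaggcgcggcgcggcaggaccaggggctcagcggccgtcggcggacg
A match here describes letters in a short window, and response elements also lie far from gene starts. The authors aligned to mm9, so these windows were matched to the expression table by symbol only.

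Fkbp5 encodes FKBP51, a co-chaperone that lowers the hormone affinity of the receptor and so closes a feedback loop. Its log2 values were 11.98, 12.66, 12.85 and 12.83 in sham replicates 1 to 4 and 11.58, 11.47, 11.39 and 11.76 in adrenalectomy replicates 1 to 4. The groups did not overlap, but sham replicate 1 lay much closer to the adrenalectomy samples than the other sham samples did. Sham samples had a mean of 12.58 ± 0.41 and adrenalectomy samples one of 11.55 ± 0.16 (SD, n = 4 each). The fall of 1.03 ± 0.19 (SE) on the log2 scale had an adjusted p of 0.0431 in limma and a 95% interval of the difference from -1.46 to -0.60. The call stood close to the threshold and was made in 6 of 19 alternative settings, and robust moderation of the variances ended it (limma adjusted p = 0.0660). Without sham replicate 1 the difference was -1.23, with an adjusted p of 0.00493 in limma, and the adjusted p ran from 0.00493 to 0.418 over the 19 settings. Leaving out any other single sample ended the call, with limma adjusted p from 0.0880 to 0.124 and differences from -1.10 to -0.94. When the mean of the squamous and skeletal muscle genes was added to the model as a covariate, the difference was -0.79 and limma called no gene at all, with 2278 at an unadjusted p under 0.05.

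The transcription factors among the targets differed in how firmly they separated the groups. Klf9 encodes a Krüppel-like factor that limits proliferation and represses other genes. It stood at 12.35, 12.46, 12.49 and 12.61 in sham replicates 1 to 4 and at 11.83, 11.74, 11.76 and 11.87 in adrenalectomy replicates 1 to 4. The gap between the lowest sham sample and the highest adrenalectomy sample was wider than the range within either group. Klf9 fell from 12.48 ± 0.10 (SD, n = 4) to 11.80 ± 0.059 (SD, n = 4), by 0.68 ± 0.05 (SE) on the log2 scale, with an adjusted p of 0.00717 in limma. It was called in 16 of 19 alternative settings, the most of the 10 targets, including all 8 that left out 1 sample. Its difference stayed between -0.72 and -0.64 over the 19, and its limma adjusted p was 0.0645 with the squamous and skeletal muscle covariate, in a range of 0.00271 to 0.233.

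Cebpd encodes C/EBPδ, a transcription factor of adipocyte differentiation and of acute inflammatory responses. It stood at 9.85, 9.79, 9.98 and 9.72 in sham samples and at 9.31, 9.51, 9.32 and 9.49 after adrenalectomy. The groups did not overlap, and sham replicate 1 was among the higher sham samples here. Cebpd fell by 0.43 ± 0.07 (SE) on the log2 scale, from 9.83 ± 0.11 to 9.41 ± 0.11 (SD, n = 4 each), with an adjusted p of 0.0361 in limma. The call was made in 7 of 19 alternative settings, and leaving out any single sample other than sham replicate 1 ended it (limma adjusted p from 0.0598 to 0.105).

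Klf15 encodes a Krüppel-like factor of amino acid and lipid metabolism in fasting. Its values were 11.37, 11.76, 11.79 and 11.90 in sham samples and 11.59, 11.51, 11.32 and 11.43 after adrenalectomy. Sham replicates 2 to 4 lay above every adrenalectomy sample, and sham replicate 1 lay below 3 of them. The difference was -0.24 ± 0.11 (SE), with an adjusted p of 0.289 in limma. Without sham replicate 1 it was -0.35, and Klf15 was called (limma adjusted p = 0.0389; 0.0389 to 0.715 over the 19 settings).

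Zbtb16 encodes PLZF, a zinc finger repressor of progenitor cells and innate-like lymphocytes. It stood at 7.58, 8.06, 8.18 and 8.97 in sham samples and at 7.84, 7.62, 7.79 and 7.85 after adrenalectomy. Sham replicate 4 was far above and sham replicate 1 below every adrenalectomy sample, so that the spread among sham samples exceeded the difference of -0.42 ± 0.25 (SE; limma adjusted p = 0.398, 95% interval -1.002 to 0.16). Without sham replicate 4 the difference was -0.16 and without sham replicate 1 it was -0.63, and neither passed (limma adjusted p = 0.562 and 0.130, in a range of 0.130 to 0.665).

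Among the regulators of signalling, Tsc22d3 encodes the glucocorticoid-induced leucine zipper GILZ, which restrains inflammatory transcription factors. Its values were 12.57, 12.72, 12.80 and 12.89 in sham samples and 12.53, 12.52, 12.45 and 12.53 after adrenalectomy. The groups did not overlap, although sham replicate 1 came within the width of the adrenalectomy range. The difference of -0.24 ± 0.06 (SE) did not pass (limma adjusted p = 0.102), and without sham replicate 1 it was -0.30 and passed (limma adjusted p = 0.0218, in a range of 0.0218 to 0.473).

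Sgk1 encodes a kinase that raises sodium channel activity in aldosterone-responsive epithelia and is a target of both the glucocorticoid and the mineralocorticoid receptor. It stood at 14.38, 14.53, 14.83 and 14.51 in sham samples and at 14.36, 13.94, 14.20 and 14.12 after adrenalectomy. Sham replicate 1 and adrenalectomy replicate 1 were nearly level, and the other samples lay well apart. The difference of -0.41 ± 0.11 (SE) did not pass (limma adjusted p = 0.107, 95% interval -0.66 to -0.15), nor did it pass in any of 19 alternative settings, in which it lay between -0.48 and -0.31.

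Fam107a encodes a stress-responsive protein that binds actin. Its values were 7.44, 7.51, 7.56 and 7.38 in sham samples and 7.07, 7.06, 7.11 and 7.13 after adrenalectomy. The groups were separate, and sham replicate 1 lay in the middle of its group. Fam107a fell by 0.38 ± 0.05 (SE) on the log2 scale (limma adjusted p = 0.0155) and was called in 14 of 19 alternative settings. The call ended without sham replicate 3 and without adrenalectomy replicate 2 (limma adjusted p = 0.0529 and 0.0508, in a range of 0.00889 to 0.307). Fam107a and Zbtb16 had the lowest values of the targets. Whether the unnamed transformation compressed differences and spread at low values was not tested.

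Dusp1 encodes the phosphatase MKP-1, which switches off stress-activated MAP kinases. It stood at 11.04, 10.91, 11.14 and 10.49 in sham samples and at 11.04, 11.14, 11.25 and 10.80 after adrenalectomy. The groups overlapped, and replicate 4 was the lowest of each. The difference was 0.16 ± 0.15 (SE; limma adjusted p = 0.574), with a 95% interval from -0.18 to 0.50, which excludes a fall as large as that of Fkbp5 or Klf9. Errfi1, which encodes the inhibitor MIG6 of the epidermal growth factor receptor, stood at 12.03, 11.86, 12.02 and 11.89 in sham samples and at 12.04, 11.98, 11.85 and 11.76 after adrenalectomy. The groups overlapped almost wholly, and the difference was -0.04 ± 0.07 (SE; limma adjusted p = 0.776, 95% interval -0.20 to 0.12).

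**Figure D2:**
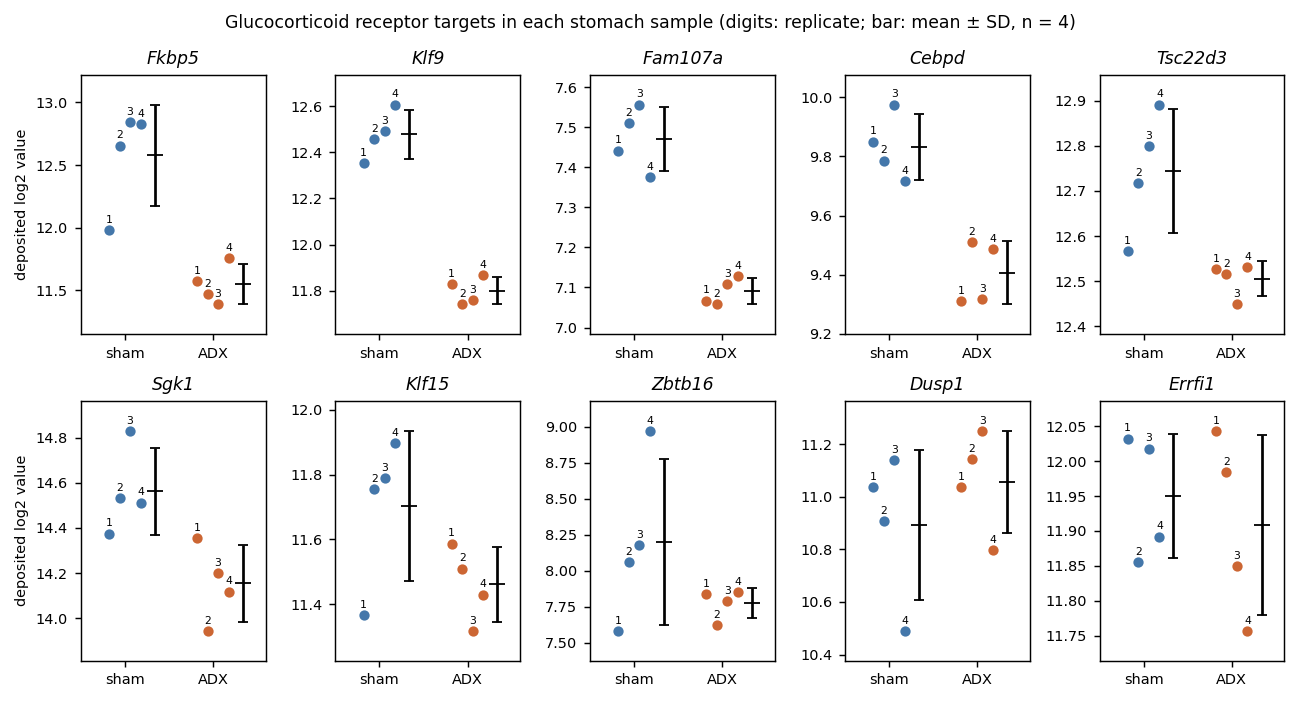
Deposited log2 value (vertical) of each of the 10 targets in every sample, with sham samples in blue, adrenalectomy samples (ADX) in orange, digits for replicate numbers and bars for the mean ± SD of 4 samples. The groups are separate for Fkbp5, Klf9, Fam107a, Cebpd, Tsc22d3 and Sgk1 and overlap for Klf15, Zbtb16, Dusp1 and Errfi1.

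Immediate early genes, which tissue handling and growth signals also induce, were read beside Dusp1 and Errfi1. The mean log2 value of 15 such genes was 11.03, 10.79, 10.93 and 10.69 in sham replicates 1 to 4 and 10.92, 11.004, 11.05 and 10.88 in adrenalectomy replicates 1 to 4. It was lowest in replicate 4 of each group, as was Dusp1, and in the adrenalectomy group the order of the samples was that of Dusp1. In the sham group the list mean was highest in replicate 1 and Dusp1 in replicate 3. Errfi1 followed another order, lowest in replicate 2 of the sham group and highest in replicate 1 of both groups. Whether handling contributed to the values of Dusp1 or Errfi1 was not tested. Of the 15 genes, Btg2, an antiproliferative gene, rose by 0.24 ± 0.03 (SE; limma adjusted p = 0.0126) and the others were not called. Genes called higher made up 0.93% of all tested genes. Junb, an AP-1 subunit, differed by 0.16 (limma adjusted p = 0.0717), Cyr61, which encodes a matrix signalling protein, by 0.34 (limma adjusted p = 0.204), and Egr2, a zinc finger transcription factor, by 0.06 (limma adjusted p = 0.339).

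Sham replicate 1 was the lowest of the sham samples for 6 of the 10 targets, against 29.5% of all tested genes. For Fkbp5, Zbtb16 and Klf15 it stood 0.79, 0.82 and 0.45 below the mean of the other sham samples on the log2 scale. For Sgk1, Tsc22d3 and Klf9 it stood 0.25, 0.24 and 0.17 below that mean, and for the other 4 targets it was not the lowest. Of the 39 tested genes of the wider list of glucocorticoid-induced genes described below, it was lowest for 20. Sham replicate 1 was also the sham sample with the lowest squamous and skeletal muscle means (11.28 and 6.97), and it was lowest of the sham samples for 12 of 12 squamous and 12 of 14 skeletal muscle genes. Sham replicate 4, with a squamous mean of 11.97 and a skeletal muscle mean of 7.22, was the highest sham sample for Klf9, Klf15, Tsc22d3 and Zbtb16. Sham replicate 3, with means of 13.10 and 9.16, was the highest for Fkbp5, Sgk1, Fam107a, Cebpd and Dusp1. For Errfi1 the highest was sham replicate 1. The part of squamous and skeletal muscle RNA in the low values of sham replicate 1 was not tested. Without sham replicate 1, limma called 6 of the 10 targets lower, with 1.68% of all tested genes called lower in that fit. When sham replicates 2 and 3, highest for squamous and skeletal muscle genes, and adrenalectomy replicate 1, highest for liver genes, were all left out, limma called no gene and 1822 genes had an unadjusted p under 0.05. That fit kept sham replicates 1 and 4 and adrenalectomy replicates 2, 3 and 4. The differences of Fkbp5, Klf9, Fam107a and Cebpd were then -0.86, -0.69, -0.31 and -0.34. The SE of Klf9 was 0.084 in that fit and 0.054 in the full data.

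The spread within groups was also unequal. For 9 of the 10 targets the SD was larger among sham samples than among adrenalectomy samples, Errfi1 being the exception, and the same held for 62.2% of all tested genes. Zbtb16 had an SD of 0.58 in sham samples and 0.10 after adrenalectomy, and Tsc22d3 had 0.14 and 0.039.

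**Figure D3:**
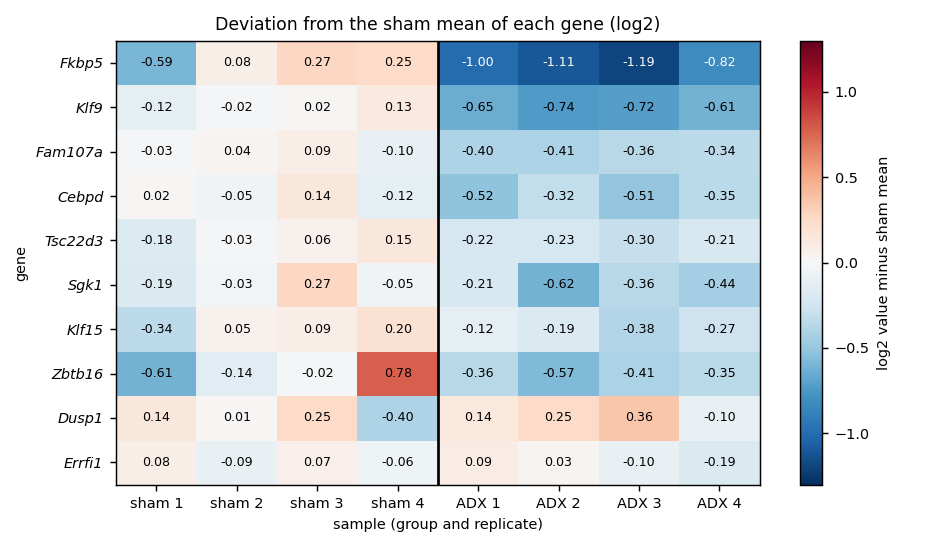
Log2 value of each target (rows) in each sample (columns; ADX, adrenalectomy) minus the sham mean of that gene, with the number printed in each cell and colour from blue (lower) to red (higher). Sham replicate 1 is blue for Fkbp5, Zbtb16 and Klf15, and the adrenalectomy columns are blue for the upper 8 genes.

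Levels were compared between genes after division by exon length, on the scale of log2 value per kilobase. In sham samples Sgk1 was the highest of the 10 at 12.54 ± 0.19 (SD, n = 4), at the 95.2 percentile of tested genes, and Tsc22d3 followed at 11.27 ± 0.14 (SD, n = 4). Klf9 at 10.31 ± 0.10, Errfi1 at 10.26 ± 0.089 and Klf15 at 10.24 ± 0.23 (SD, n = 4 each) did not differ beyond their spread. Fkbp5 at 9.87 ± 0.41 and Dusp1 at 9.65 ± 0.28 (SD, n = 4 each) overlapped likewise, and Cebpd stood at 7.93 ± 0.11 (SD, n = 4). Zbtb16 at 5.80 ± 0.58 and Fam107a at 5.53 ± 0.079 (SD, n = 4 each) were the lowest, at the 20.6 and 18.8 percentiles. The receptor gene Nr3c1, at 10.19 ± 0.057 (SD, n = 4), lay near Klf15 on this scale. After adrenalectomy Klf9 stood at 9.63 ± 0.059 and Fkbp5 at 8.84 ± 0.16 (SD, n = 4 each), and Dusp1, at 9.81 ± 0.19 (SD, n = 4), lay above Fkbp5 and within its spread of Klf9.

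Genes that share a family symbol with a target, called relatives here, were examined as a comparison. They were 29 in all, with Tnk2, which shares no symbol, set beside Errfi1. A shared symbol, as in Cebpz, need not mean a close relation. None of the 29 fell and 1 rose, against 0.782% and 0.93% of all tested genes, so that few calls would be found among any 29 genes. Groups that did not overlap were found with adrenalectomy lower for 2 (Tsc22d2 and Klf13) and higher for 2, against 6.13% and 6.3% of all tested genes. The median difference of the 29 was -0.01. The gene that rose was Fkbp4, which encodes the receptor co-chaperone FKBP52 that competes with FKBP51 for Hsp90. Fkbp4 rose from 14.38 ± 0.045 to 14.58 ± 0.040 (SD, n = 4 each), by 0.20 ± 0.03 (SE; limma adjusted p = 0.0301), while Fkbp5 fell. Tsc22d2, a relative of Tsc22d3, differed by -0.32 (limma adjusted p = 0.0568), and Klf13, a close relative of Klf9, by -0.17 (limma adjusted p = 0.114). The prolyl isomerase gene Fkbp1a differed by 0.05 (limma adjusted p = 0.212). Differences between a target and its relative were not tested.

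**Figure D4:**
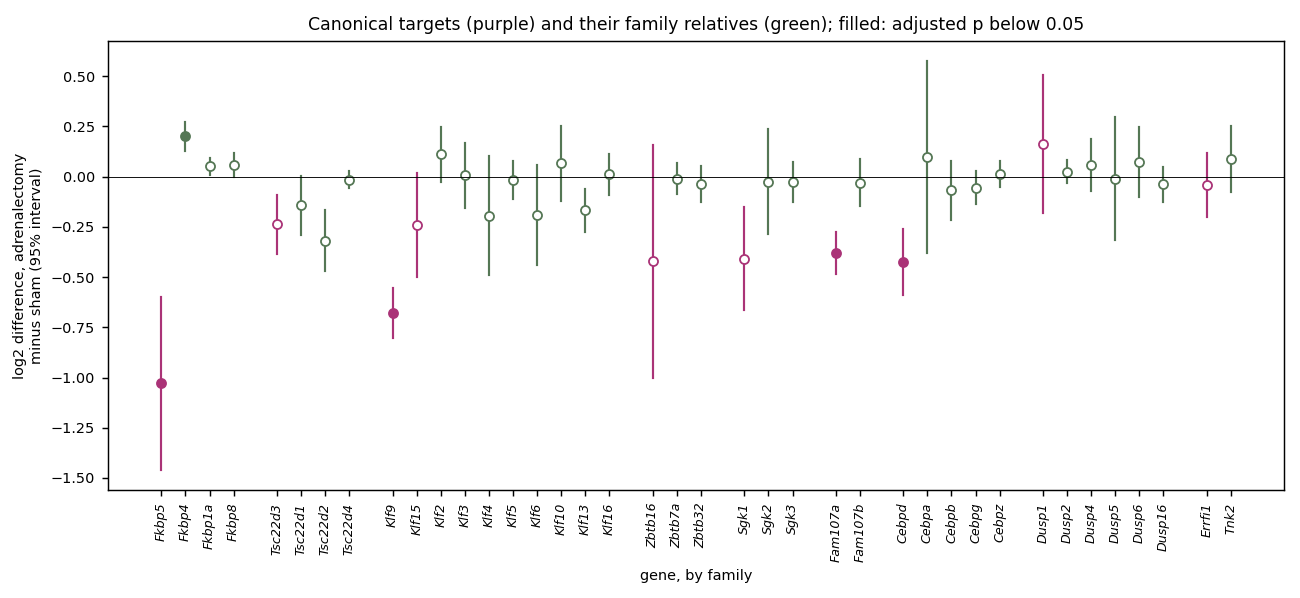
Log2 difference between the groups (vertical, adrenalectomy minus sham, points with 95% intervals from limma) for the 10 targets in purple and 29 relatives in green. Genes are grouped by family symbol, with Tnk2 beside Errfi1, and filled where the adjusted p was below 0.05. Fkbp5, Klf9, Fam107a and Cebpd are filled below 0 and Fkbp4 is filled above 0.

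A wider list of 40 genes reported as induced by glucocorticoids in other tissues was read from the same fit. This list was chosen with earlier results of these data known, so that its count is a description and no independent result. Of its 39 tested members, 5 fell and none rose, against the same 0.782% and 0.93% of all tested genes, and 34 were not called. The median difference was -0.12. The count of 5 became 0 with the squamous and skeletal muscle covariate and 0 without the 3 samples named above, and it was 2 without sham replicate 2, 3 or 4 or adrenalectomy replicate 2 or 4, and 3 without adrenalectomy replicate 1 or 3. Per1, a repressor of the circadian clock, fell by 1.04 ± 0.07 (SE; limma adjusted p = 0.00500), from 11.73, 11.63, 11.92 and 11.83 in sham samples to 10.75, 10.61, 10.80 and 10.79. Pdk4, a kinase that holds back pyruvate oxidation in fasting, fell by 0.85 ± 0.08 (SE; limma adjusted p = 0.00825). The other falling genes were Foxo3, a transcription factor of catabolism, the glutamine synthetase gene Glul, and Sdpr, which encodes a protein of caveolae. They differed by -0.29, -0.21 and -0.19, with adjusted p nearer the threshold (limma adjusted p = 0.0398, 0.0467 and 0.0301). Trim63 lay below the filter on low values. The largest positive difference, chosen after its value was seen, was in Tat, a liver enzyme gene, at 1.10 ± 0.82 (SE; limma adjusted p = 0.489). In adrenalectomy replicate 1, where liver genes were highest, Tat reached 10.72, and elsewhere it lay between 6.70 and 8.26.

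**Figure D5:**
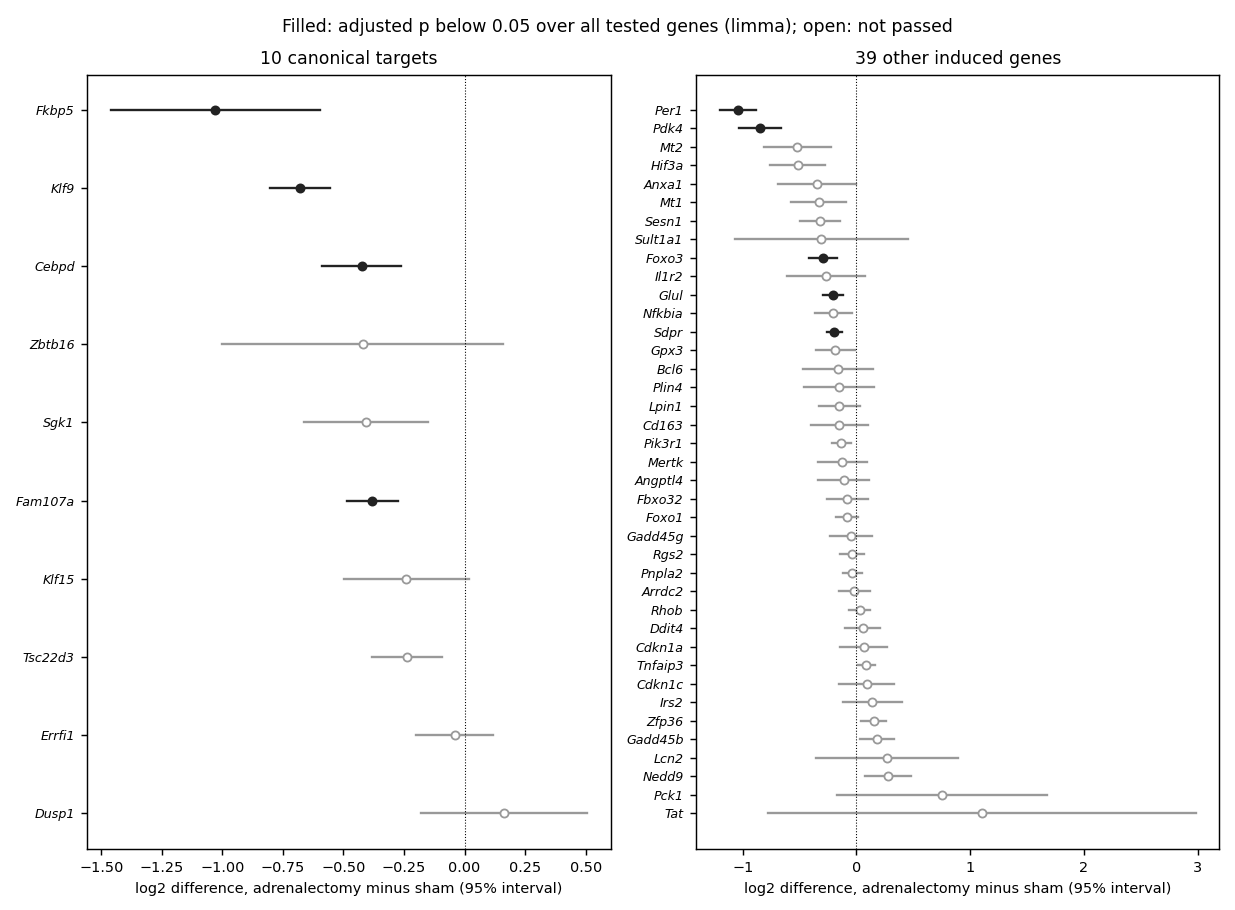
Log2 difference between the groups (horizontal, adrenalectomy minus sham, with 95% intervals from limma) for the 10 targets (left) and 39 other glucocorticoid-induced genes (right), each ordered by the difference. Filled points passed an adjusted p of 0.05 over all tested genes, 4 on the left and 5 on the right, all below 0.

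The receptor and the proteins that prepare it were read as the upstream part of the pathway. Of 15 genes, 4 rose and 1 fell, against 0.93% and 0.782% of all tested genes, and the median difference was 0.13. With the squamous and skeletal muscle covariate, and without the 3 samples named above, limma called 0 genes, so that these calls ended there too. The chaperone genes Hspa8, Stip1, Fkbp4 and Hsp90aa1 rose by 0.28, 0.23, 0.20 and 0.16 (limma adjusted p = 0.0224, 0.0223, 0.0301 and 0.0398), and the coactivator gene Ncoa2 fell by 0.10 (limma adjusted p = 0.0483). Fkbp4 is also the relative that rose, so that both lists count this same call. The proteins of all 5 called genes also serve other clients or nuclear receptors. The other 10 genes were not called, among them the receptor gene Nr3c1, which differed by 0.09 (limma adjusted p = 0.165).

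Genes with the profile nearest to each falling target were found by the root mean square difference between mean-centred log2 values over the 8 samples. A gene chosen for its likeness to a target that fell is bound to differ in much the same way between the same groups, so that its call is a description and no separate result. Fkbp5 was nearest to Rgcc, a cell cycle regulator, at 0.23, then to Pdk4 at 0.23 and to Fmo2, a flavin monooxygenase gene, at 0.23, where the profile of Fkbp5 itself had a root mean square of 0.58. Of these 3, Pdk4 alone was called. Klf9, with a root mean square of 0.35, was nearest to Fam13a at 0.084, the dipeptidase gene Dpep1 at 0.098 and the kinase gene Pim3 at 0.10, which fell by 0.64, 0.55 and 0.57 on the log2 scale. Fam107a, with a root mean square of 0.20, was nearest to the retinol-binding protein gene Rbp2 at 0.042, to Piwil4, of the Piwi family, at 0.056 and to Fry at 0.059, all called lower. Cebpd, with a root mean square of 0.23, was nearest to the stanniocalcin gene Stc1 at 0.073, the Notch ligand gene Jag1 at 0.074 and Piwil4 at 0.082, and of these Piwil4 was called.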

How the data were processed

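The submitters' processing notes name STAR, featureCounts, Trim Galore and DESeq2, with no versions, and mm9 as the genome build. Order, settings, strand setting and annotation: not given in the sources used here. What the authors deposited is a table of log2 values, normalized between samples by an unnamed transformation. It holds no counts, so that depth is unknown. The 8 columns of this series were used, and 8 other columns were not. Dates had replaced the gene names of 26 rows, which were dropped. The labels name no batch.

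Genes with a mean linear value of at least 10 were tested, 16889 of 24481, with limma 3.58.1 in R 4.3.3 (intensity trend, group as the only term, two-sided, Benjamini-Hochberg adjustment). The code was tested on simulated data. A list mean averages the log2 values of its genes in a sample. Exon lengths came from GENCODE M21.

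The members and lists were chosen with earlier results of these data known. Named genes are the 10 targets, the called genes and up to 4 genes with the smallest p of each wider list, and the 3 nearest profiles of each called target. Nr3c1, as the receptor gene, and Tnk2, as the gene set beside Errfi1, are named besides. Rows of close paralogs or overlapping genes may share reads. The 19 alternatives were no filter, a filter at a mean of 100, no intensity trend, robust moderation, a replicate block, quantile normalization, median centring, a pseudocount of 10, a covariate for liver or for squamous and skeletal muscle genes, 3 samples left out together, and each of 8 samples left out in turn.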

Additional observations from a re-analysis of the deposited data

Results flagged for a closer look

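Of 100 groups of 4 values examined, for 37 genes and 13 list means, 3 held a sample that stood far from its group by Dixon's criterion, which chance alone meets in about 1 group in 20. None of these 3 was a value of the 10 targets. Rbp2, a gene with a profile near that of Fam107a, reached 12.09 in adrenalectomy replicate 3, and its remaining adrenalectomy values lay between 11.98 and 11.997. The mean of the liver genes was 10.9 in sham replicate 4 against 8.72 to 8.77 in the other sham samples. The mean of the smooth muscle genes was 15.26 in sham replicate 4 against 15.32 to 15.33 in the other sham samples.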

How the results depend on the processing

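Over 19 alternative settings each of the 10 targets kept the sign of its difference, except Errfi1, whose difference ran from -0.0859 to 0.0097 with 1 sample left out and was positive without adrenalectomy replicate 4. The 289 genes called in the table became 170 with no filter on low values, 156 with median centring, 123 with the liver score as a covariate, and 0 both with a covariate for squamous and skeletal muscle genes and with 3 samples left out. The 4 targets called lower became 2, 4, 2, 0 and 0 in these settings, and the 5 called genes of the wider list became 3 with no filter, 3 with the liver score, and 0 in each of the last 2. The median difference of the targets was -0.39, and -0.32 and -0.33 in the last 2. With 1 sample left out, 27 to 633 genes, 1 to 6 targets and 2 to 7 genes of the wider list were called, and the median lay between -0.40 and -0.30. The cause of these shifts was not tested. With the covariate for squamous and skeletal muscle 2278 genes had an unadjusted p under 0.05 in limma, against 3245 in the full data. Correlations of the deviations of same-numbered samples were -0.29, 0.45, -0.12 and -0.63 for replicates 1 to 4, positive for replicate 2 only, and the labels do not say what a number marks, so that the numbers were not taken as pairs. With a replicate block 4 genes, 0 targets and 1 gene of the wider list were called. With the depth unknown, the limit that counting sets was not assessed.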
